A study of Capra hircus with 20 samples.

Results

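The response of goat adipocyte cultures to induction was compared between intramuscular and subcutaneous cells as the interaction of depot and stage, that is, the change from preadipocytes to adipocytes in intramuscular cells minus the same change in subcutaneous cells. The mRNA table held 20587 gene symbols, of which 11432 averaged 1 FPKM or more across the 20 libraries and were tested. The 4 groups of 5 libraries were intramuscular preadipocytes (IMPA) and adipocytes (IMA), cultured from the longissimus dorsi, and subcutaneous preadipocytes (SPA) and adipocytes (SA), cultured from subcutaneous fat, all from male Jianzhou Daer goats that were 7 days old. Preadipocytes were collected at day 0 and adipocytes after 3 days in a medium with oleic acid. No group was kept for 3 days without oleic acid, so induction and time in culture cannot be told apart. The response below is the change from day 0 to day 3. All groups were cells of the third passage grown in DMEM/F12 with serum, and the sources used here do not tie a replicate number to a goat. No allele, transgene or sorted population distinguished the groups, so that each library is a bulk culture of the cells that attached and grew.

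Preadipocytes are fibroblast-like progenitors. In the usual course of adipogenesis they leave the cell cycle, switch on the nuclear receptor PPARG with its partner CEBPA, and then make the proteins that take up, bind and store fatty acids. Cultures from muscle can also hold myogenic progenitors, which leave the cell cycle and fuse into myotubes that build sarcomeres. Fatty acids such as oleic acid are ligands of the PPAR receptors, whose target genes include PDK4, ANGPTL4, PLIN2 and CD36.

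Changes are given as differences of log2(FPKM + 1) between group means, adipocytes minus preadipocytes, with the standard error of limma's fit over the 20 libraries, and adjusted p values are Benjamini-Hochberg values over all genes tested. Because 1 is added to each value, the change of a gene with a low FPKM is understated on this scale. A gene was called in a contrast when its adjusted p was under 0.05. "Rose" and "fell" are used only for called changes.

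The summed FPKM of a library over all 3 deposited tables lay between 527426 and 596669. FPKM is divided by library size, so these sums do not describe depth. The tables hold no fragment counts, so the number of reads behind a single value cannot be given, and the library read totals that the study states were not used here. Several library measures moved with the stage. The factor of a median-of-ratios scaling was 1.03 to 1.05 in IMPA and 0.937 to 0.973 in IMA (two-sided exact permutation test, p = 0.00794, adjusted p = 0.0212 over 16 tests, the smallest p that 5 against 5 libraries allow). In SPA and SA it was 0.999 to 1.01 and 1.01 to 1.03 (exact permutation p = 0.0159, adjusted p = 0.0363). Genes above 0 FPKM numbered 16011 to 16961 in IMPA and 15735 to 16289 in IMA (exact permutation p = 0.0238, adjusted p = 0.0423). In SPA and SA they numbered 15126 to 15659 and 15152 to 15685 (exact permutation p = 0.921, adjusted p = 0.921). Newly assembled intronic lncRNAs held 1.00% to 1.30% of the FPKM sum in SPA and 1.42% to 1.49% in SA (exact permutation p = 0.00794, adjusted p = 0.0212), against 1.37% to 1.43% in IMPA and 1.17% to 1.49% in IMA. The share of reads that could be aligned, as the study gives it, was higher in every IMPA library than in any library of the other groups. It was also higher in every SPA library than in any SA library. This share thus moved with the stage in both depots, and its part in the results was not tested. SPA1 and SA5 stood apart from the other subcutaneous libraries in read filtering, and counts without both are given where they bear on a result.

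The labelled cell types were checked against their markers. In the intramuscular libraries the skeletal muscle markers MYOD1, MYOG, ACTA1, CKM, DES and PAX7 summed to 1407 to 1694 FPKM in IMPA and 3189 to 3599 FPKM in IMA, whereas in the subcutaneous libraries the same sum never passed 4.44 FPKM. MYOG, a myogenic regulatory factor, had means of 649 ± 66.9 FPKM in IMPA and 736 ± 35.00 FPKM in IMA (SD, n = 5). It was listed at 0 in all subcutaneous libraries except SPA1 (0.619 FPKM) and SA5 (0.397 FPKM). The markers of mature adipocytes were low in every group. PPARG, the nuclear receptor that directs adipogenesis, had means of 0.475, 0.364, 0.624 and 1.03 FPKM in IMPA, IMA, SPA and SA, which was under the limit for testing. ADIPOQ, the adipokine adiponectin, peaked at 0.507 FPKM over the SPA libraries and at 0.596 FPKM over the SA libraries, and PLIN1, a coat protein of large lipid droplets, at 0.166 and 0.375 FPKM. The adipocyte markers PPARG, CEBPA, PLIN1, ADIPOQ, LPL and CIDEC together summed to 10.9 to 11.8 FPKM in IMPA and 6.98 to 8.31 FPKM in IMA. In subcutaneous cells the sum was 10.7 to 12.1 FPKM in SPA and 9.90 to 12.1 FPKM in SA. It was thus lower in IMA than in IMPA, and SPA and SA overlapped. Summed endothelial markers (PECAM1, CDH5, VWF) stayed at or under 0.933 FPKM in every library, and leukocyte markers (PTPRC, CSF1R, CD68) at or under 2.82 FPKM. In bulk cultures such as these, fewer cells of a type and less RNA per cell cannot be told apart. The groups are called by their labels below, with the muscle genes of the intramuscular cultures given beside the results.

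The 2 depots responded differently in 6319 of the 11432 genes. The response was more positive in intramuscular cells in 2368 genes (20.7% of those tested) and more positive in subcutaneous cells in 3951 (34.6%). With a limit of 1.5-fold on the interaction, 785 (6.87%) and 1080 (9.45%) remained in these directions. Within the intramuscular cells 2337 genes rose (20.4%) and 4631 fell (40.5%). Within the subcutaneous cells 3005 rose (26.3%) and 3010 fell (26.3%). Across the 11432 genes, which are not independent replicates, the changes in the 2 depots had a Pearson correlation of 0.019.

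Both stage contrasts were called in 3759 genes, and 1629 of these (43.3%) moved in opposite directions. In 492 genes (4.30% of those tested) the level rose in intramuscular and fell in subcutaneous cells, and in 1137 genes (9.95%) it fell in intramuscular and rose in subcutaneous cells. A response of the same direction was seen in 696 genes that rose in both depots (6.09%) and 1434 that fell in both (12.5%). Changes of at least 1.5-fold in both depots were found in 25 (0.219%), 45 (0.394%), 36 (0.315%) and 58 (0.507%) genes of the 4 classes, in that order. Every one of the opposite genes was also called in the interaction. Opposite changes add up there, so this follows from how the class is defined and is no separate finding. Among the genes of the same direction 716 were called in the interaction, 258 of 696 that rose and 458 of 1434 that fell. The remaining interaction calls came from 2245 genes called in intramuscular cells alone, 1577 called in subcutaneous cells alone and 152 called in neither.

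**Figure D1:**
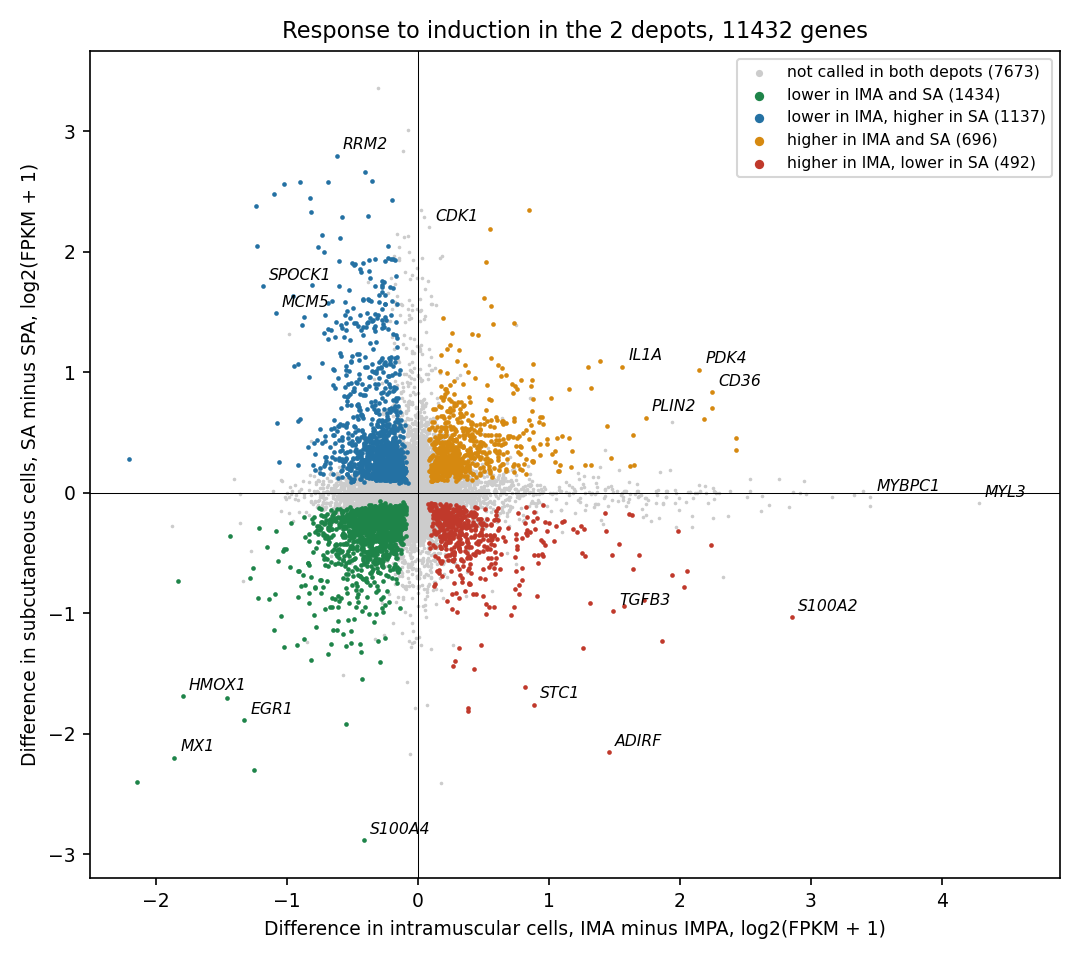
Each point is 1 of the 11432 genes, with the difference IMA minus IMPA on the horizontal axis and SA minus SPA on the vertical axis, both on the log2(FPKM + 1) scale, coloured by the calls in the 2 depots. The upper left and lower right corners hold the 1137 and 492 genes with opposite responses, and the muscle genes such as MYBPC1 lie along the horizontal axis.

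The split between directions depended on how the libraries were scaled. The median difference over all genes tested was -0.085 in intramuscular and -0.0091 in subcutaneous cells. Median-of-ratios scaling raised the intramuscular median by 0.11 and moved the subcutaneous one by -0.014. With it, 3583 interaction calls were more positive in intramuscular and 2618 in subcutaneous cells, so that the share of the first went from 37.5% to 57.8%. The classes then held 874 genes up in intramuscular and down in subcutaneous cells, 649 of the reverse, 1049 up in both and 1054 down in both. A gene is called stable below when it stayed in its class under all of 4 other scalings (upper quartile, median of ratios, mRNA sum and quantiles). That held for 421 of 492 genes up in intramuscular and down in subcutaneous cells, 530 of 1137 of the reverse, 465 of 696 up in both and 942 of 1434 down in both, and for all genes with changes of at least 1.5-fold in both depots.

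For many opposite genes the depot with the higher level differed between day 0 and day 3. Of the 492 genes up in intramuscular and down in subcutaneous cells, 361 had a lower mean in IMPA than in SPA, and 188 had a lower mean in IMA than in SA. Among the 1137 genes of the reverse kind, 156 were lower in IMPA than in SPA at day 0 and 891 were lower in IMA than in SA at day 3. Over all genes tested 44.8% were lower in IMPA than in SPA and 58.7% were lower in IMA than in SA. These means come from the libraries that define the classes, so they describe the classes and are no separate evidence.

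The genes that rose in intramuscular and fell in subcutaneous cells included glycolytic enzymes, hypoxia-induced genes, some muscle genes, and ADIRF, TGFB3, TGFBI and S100A2. ADIRF, a factor that promotes adipogenesis, was at 9.29, 9.74, 11.1, 8.94 and 7.37 FPKM in IMPA and 23.6, 28.2, 30.5, 27.2 and 26.2 FPKM in IMA. Its level was 20.5, 17.3, 18.9, 21.6 and 23.96 FPKM in SPA and 3.59, 3.55, 4.09, 3.94 and 3.80 FPKM in SA. The groups of each depot did not overlap, and ADIRF rose by 1.46 ± 0.087 in intramuscular cells and changed by -2.15 ± 0.087 in subcutaneous cells (interaction adjusted p = 2.36e-15, limma). TGFB3, a ligand of the TGF-beta family, was at 8.79, 8.62, 9.89, 8.25 and 11.5 FPKM in IMPA and 24.9, 27.6, 30.2, 27.7 and 30.2 FPKM in IMA. In the subcutaneous cells it was at 21.2, 24.3, 22.4, 22.1 and 23.7 FPKM in SPA and 11.2, 11.8, 10.6, 11.6 and 9.84 FPKM in SA. It started lower in the intramuscular preadipocytes and ended higher in the intramuscular adipocytes, with changes of 1.49 ± 0.072 and -0.98 ± 0.072.

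TGFBI, an extracellular matrix protein named for its induction by TGF-beta, was at 143, 159, 146, 147 and 151 FPKM in IMPA and 253, 253, 260.0, 259 and 254 FPKM in IMA. It was at 754, 767, 775, 811 and 795 FPKM in SPA and 456, 393, 400.1, 463 and 469 FPKM in SA. The subcutaneous level stayed the higher one at both stages while the distance between the depots shrank, with changes of 0.77 ± 0.045 and -0.84 ± 0.045. S100A2, a calcium-binding protein, was at 138, 173, 156, 171 and 163 FPKM in IMPA and 1105, 1130.3, 1152, 1174 and 1247 FPKM in IMA. Subcutaneous levels were 37.3, 35.02, 30.3, 38.2 and 34.8 FPKM in SPA and 15.8, 17.3, 18.1, 14.5 and 17.6 FPKM in SA. Its mean was 7.25-fold higher in IMA than in IMPA and 2.11-fold lower in SA than in SPA, with changes of 2.85 ± 0.068 and -1.03 ± 0.068. HAS2, a hyaluronan synthase of the cell membrane, changed by 1.31 ± 0.11 and -0.91 ± 0.11, and NDUFA4L2, a mitochondrial protein induced in hypoxia, by 1.57 ± 0.14 and -0.94 ± 0.14.

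Of 28 core glycolysis genes tested, 12 rose in intramuscular and fell in subcutaneous cells (all 12 stable), against 4.30% of all genes. In intramuscular cells the response was more positive in 23 and more negative in 2, against 20.7% and 34.6% of all genes. The median change of the list was 0.20 in intramuscular and -0.44 in subcutaneous cells, against -0.085 and -0.0091 over all genes tested. PGK1, which makes ATP late in the pathway, was at 238, 243, 229.8, 235 and 209 FPKM in IMPA and 358, 355, 324, 352 and 341 FPKM in IMA. It was at 579.9, 617, 597, 588 and 611 FPKM in SPA and 397, 358, 381, 406 and 403 FPKM in SA. All 5 libraries of a group lay apart from those of the other stage in both depots, and the subcutaneous fall brought SA near to IMA, with changes of 0.58 ± 0.043 and -0.62 ± 0.043. The enzymes TPI1 (0.49 and -0.48), ALDOA (0.55 and -0.46), GAPDH (0.32 and -0.42) and PFKP (0.26 and -0.84) changed in the same way, as did the glucose transporter SLC2A3 (0.89 and -0.52) and the lactate exporter SLC16A3 (0.91 and -0.85). Lactate dehydrogenase A, listed under the symbol LDH-A, changed by 0.51 ± 0.063 and -0.71 ± 0.063. PKM, the pyruvate kinase of most proliferating cells, fell in both depots (-0.34 and -0.48), and LDHB, the heart form of lactate dehydrogenase, moved the other way (-0.30 and 0.24). The muscle forms PGAM2 (2.21 and -0.085) and ENO3 (1.83 and 0.021) rose in intramuscular cells, and their subcutaneous changes were not called.

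Hypoxia targets, genes induced by the transcription factor HIF1A at low oxygen, gave the same picture and share several members with glycolysis. Of 28 tested, 13 rose in intramuscular and fell in subcutaneous cells (12 stable), against 4.30% of all genes. In 23 the response was more positive in intramuscular cells, against 20.7% of all genes. The list's medians were 0.41 and -0.43. BNIP3, a receptor for the removal of mitochondria, was at 41.4, 55.9, 36.2, 46.4 and 35.3 FPKM in IMPA and 77.9, 75.3, 56.4, 70.3 and 72.8 FPKM in IMA. It was at 98.3, 106, 103, 113 and 110.5 FPKM in SPA and 53.4, 46.9, 49.6, 57.2 and 52.5 FPKM in SA. SPA stood highest of the 4 groups and IMPA lowest on average, and the changes were 0.71 ± 0.10 and -1.02 ± 0.10. ANKRD37, an ankyrin repeat protein, changed by 1.26 ± 0.12 and -1.28 ± 0.12, and the secreted glycoprotein STC1 by 0.89 ± 0.13 and -1.76 ± 0.13. VEGFA, the angiogenic growth factor, changed by 0.54 ± 0.11 and -0.95 ± 0.11, and HIF1A itself by 0.56 ± 0.089 and -0.39 ± 0.089. EPAS1, the related factor HIF-2 alpha, and ADM, the vasodilator adrenomedullin, fell in both depots. With the intronic lncRNA share as a covariate, 8 glycolysis genes and 10 hypoxia targets were in this class, and without SPA1 and SA5 12 and 13 were.

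Fatty acid oxidation genes leaned the same way. Of 32 genes of oxidation or PPAR control tested, 9 rose in intramuscular and fell in subcutaneous cells (8 stable) and 4 rose in both, against 4.30% and 6.09% of all genes. The response was more positive in intramuscular cells in 21 and in subcutaneous cells in 5, against 20.7% and 34.6% of all genes. ACSL1, which couples long fatty acids to coenzyme A, was at 4.43, 4.39, 4.86, 4.87 and 4.82 FPKM in IMPA and 7.21, 8.56, 9.58, 8.88 and 9.27 FPKM in IMA. In subcutaneous cells the values were 6.83, 7.38, 7.35, 7.58 and 7.01 FPKM in SPA and 3.92, 3.91, 3.59, 3.93 and 3.83 FPKM in SA. The groups of each depot did not overlap, and the changes were nearly mirrored, 0.77 ± 0.056 and -0.77 ± 0.056. The mitochondrial enzymes HADHA (0.25 and -0.32), HADHB (0.26 and -0.25), ACAA2 (0.40 and -0.18) and ECI1 (0.58 and -0.35) moved in the same directions with smaller changes. With the intronic lncRNA share as a covariate 5 of the 32 genes were in this class, and without SPA1 and SA5 8 were.

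Muscle genes held most of the smallest interaction p values in this direction. Of 50 sarcomere and contraction genes tested, 47 rose in intramuscular cells, against 20.4% of all genes. Their subcutaneous means were under 1 FPKM at both stages in 34 of the 50, which passed the limit for testing through the intramuscular libraries alone and had no room to fall in subcutaneous cells, so the interaction of these genes is a description of the intramuscular rise. MYBPC1, myosin-binding protein C of slow muscle, was at 11.8, 10.6, 12.6, 13.7 and 13.8 FPKM in IMPA and 144, 149, 138, 149 and 149 FPKM in IMA. It never passed 0.187 FPKM in SPA or 0.0401 FPKM in SA. MYBPC1 thus rose by 3.45 ± 0.061 in intramuscular cells (11.7-fold between the means), and its subcutaneous values were all close to 0. MYL3, the light chain of slow and ventricular myosin, went from 0.524, 0.768, 0.367, 0.889 and 0.447 FPKM in IMPA to 22.99, 25.1, 42.02, 28.04 and 34.8 FPKM in IMA, with at most 0.148 FPKM in SPA and 0.0770 FPKM in SA.

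The 10 smallest interaction p values in this direction belonged to S100A2, ADIRF, MYBPC1, MYBPH and to AMPD1 (2.65), HSPB3 (2.54), DHRS7C (2.91), SMPX (2.30), PPP1R3A (2.07) and MB (2.77), with the interaction on the log2 scale in brackets. AMPD1 is the AMP deaminase of muscle, MB is myoglobin, and PPP1R3A directs a phosphatase to muscle glycogen. Of 26 excitation-contraction coupling genes tested, 22 were likewise under 1 FPKM in SPA and SA. In intramuscular cells 24 rose, against 20.4% of all genes, among them the calsequestrin CASQ2 (2.25 and 0.040). There 18 of 23 genes of muscle energy metabolism also rose, among them the creatine kinase CKM (1.74 and -0.094), and 8 of the 23 were under 1 FPKM in SPA and SA. The regulators of the muscle programme did not all follow. Of 19 tested, 7 rose and 5 fell in intramuscular cells, against 20.4% and 40.5% of all genes. The response was more positive in intramuscular cells in 8 and in subcutaneous cells in 3, against 20.7% and 34.6% of all genes. In intramuscular cells MEF2C rose by 2.43 ± 0.12 and MYF6 by 2.09 ± 0.091, whereas MYOD1 fell (-0.71 ± 0.051). The opposite criterion was met by 6 sarcomere and contraction genes, 2 of excitation-contraction coupling and 7 of muscle energy metabolism, against 4.30% of all genes. The 6 sarcomere and contraction genes did so with a measurable subcutaneous level. MYBPH had means of 48.2 ± 3.36, 178 ± 8.18, 9.18 ± 0.811 and 3.35 ± 0.399 FPKM in IMPA, IMA, SPA and SA (SD, n = 5), and the other 5 were ACTN2, TMOD1, TNNC2, NEB and TPM2, whose products cross-link, cap or regulate thin filaments. TMOD1 changed by 0.82 ± 0.072 and -1.61 ± 0.072, and ACTN2 by 1.73 ± 0.079 and -0.89 ± 0.079. The myosin light chain MYL6B, also found in non-muscle cells, changed by 2.03 ± 0.074 and -0.78 ± 0.074.

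The genes that fell in intramuscular and rose in subcutaneous cells included most of the DNA replication machinery and a run of uncharacterised genes on chromosome 23. Of 55 DNA replication genes tested, 46 fell in intramuscular and rose in subcutaneous cells (35 stable), against 9.95% of all genes. In 54 the response was more positive in subcutaneous cells, against 34.6% of all genes. The list's medians were -0.34 and 0.95. MCM5, a subunit of the helicase that opens DNA at origins, was at 14.5, 13.2, 14.97, 12.5 and 14.7 FPKM in IMPA and 6.27, 4.67, 7.53, 5.98 and 6.05 FPKM in IMA. It was at 7.19, 6.21, 6.15, 6.70 and 5.78 FPKM in SPA and 20.5, 20.9, 18.5, 17.7 and 21.5 FPKM in SA. SPA and IMA had like levels, and the order of the depots turned between day 0 and day 3, with changes of -1.09 ± 0.083 and 1.49 ± 0.083. The class held 40 of the replication genes with the intronic lncRNA share as a covariate and 46 without SPA1 and SA5.

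RRM2, the small subunit of ribonucleotide reductase, was at 32.2, 35.8, 33.6, 31.5 and 35.5 FPKM in IMPA and 20.5, 18.4, 28.2, 21.4 and 20.4 FPKM in IMA. In the subcutaneous cells it went from 11.1, 10.9, 10.5, 10.2 and 10.9 FPKM in SPA to 85.2, 80.4, 75.3, 75.3 and 85.6 FPKM in SA. Its mean was 7.52-fold higher in SA than in SPA and 1.55-fold lower in IMA than in IMPA, with an interaction of -3.42 ± 0.11 (adjusted p = 6.35e-16, limma). TK1, thymidine kinase of the S phase, was at 9.73, 10.1, 9.97, 9.08 and 10.3 FPKM in IMPA and 5.88, 5.22, 6.52, 5.21 and 5.97 FPKM in IMA. Its subcutaneous values were 6.65, 6.13, 6.37, 6.61 and 6.89 FPKM in SPA and 22.8, 19.97, 20.6, 20.7 and 23.5 FPKM in SA. Here the fall in intramuscular cells (-0.68 ± 0.056) was smaller than the rise in subcutaneous cells (1.58 ± 0.056). The helicase subunits MCM2 (-0.95 and 1.05), MCM3 (-0.69 and 1.36) and MCM4 (-0.89 and 1.39) changed with MCM5. So did E2F1, a transcription factor of the S phase (-0.69 and 1.28), UHRF1, which keeps up DNA methylation (-0.71 and 1.48), and DNAJC9, a co-chaperone of histones (-0.72 and 1.32).

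Mitosis and spindle genes rose in subcutaneous cells in 76 of 76 cases, and 75 had a more positive response there, against 26.3% and 34.6% of all genes. In intramuscular cells 39 of them fell and 1 rose, against 40.5% and 20.4% of all genes and 46 and 2 of the 55 replication genes. Thus 39 of the 76 were in the opposite class (21 stable), against 9.95% of all genes, and the medians were -0.18 and 1.55. With median-of-ratios scaling 21 fell and 9 rose in intramuscular cells, with a median of -0.068 there. SPC24, a subunit of the kinetochore, changed by -0.81 ± 0.075 and 1.72 ± 0.075, and TTK, a kinase of the spindle checkpoint, by -0.23 ± 0.057 and 1.95 ± 0.057. For CDK1, the kinase that drives entry into mitosis, the subcutaneous rise was 2.21 ± 0.057, and the intramuscular change of 0.087 ± 0.057 was not called (adjusted p = 0.190, limma). KIF11, a spindle motor, had changes of -0.11 ± 0.062 (adjusted p = 0.139, limma) and 2.13 ± 0.062. Of 30 tested cell cycle inhibitors and regulators of the G1 phase, 8 rose in both depots, against 6.09% of all genes. In subcutaneous cells 17 of them rose and 3 fell, against 26.3% of all genes in each direction. In intramuscular cells 13 rose and 9 fell, against 20.4% and 40.5%. The response was more positive in subcutaneous cells in 13 and in intramuscular cells in 7, against 34.6% and 20.7% of all genes. CDKN1A, the inhibitor p21, rose by 1.17 ± 0.046 and 0.21 ± 0.046, CDKN2B rose by 0.71 ± 0.085 and 0.48 ± 0.085, and CDKN1C, the inhibitor p57, rose in intramuscular and fell in subcutaneous cells (0.44 and -0.52), whereas CDKN2C changed with the replication genes (-0.42 and 1.31).

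A run of neighbouring genes on chromosome 23 shared this pattern. In the RefSeq annotation of assembly ARS1.2, 67 protein-coding genes with placeholder symbols lie between TRIM38 and ZNF165, and 49 of them were tested. The run was chosen after its values were seen, because 4 of the 10 smallest interaction p values in this direction belonged to genes of this kind. In subcutaneous cells 48 of the 49 rose, against 26.3% of all genes, with changes from -0.026 to 3.01 and a median of 1.72. In intramuscular cells 40 fell, against 40.5% of all genes, with changes from -1.24 to 0.30 and a median of -0.45. The opposite class held 39 of the 49 (32 stable), against 9.95% of all genes. LOC102178027 was at 81.3, 75.7, 70.99, 55.9 and 73.2 FPKM in IMPA and 32.5, 27.4, 30.5, 29.6 and 27.98 FPKM in IMA. Its subcutaneous values were 16.7, 15.9, 13.9, 17.5 and 16.7 FPKM in SPA and 91.97, 88.2, 89.9, 82.03 and 88.5 FPKM in SA. It had the smallest interaction p in this direction, with changes of -1.24 ± 0.076 and 2.38 ± 0.076 (interaction adjusted p = 3.78e-16, limma). The exception in subcutaneous cells was LOC102179149, whose change of -0.026 ± 0.061 was not called. The 7 named genes tested within or at the ends of the run had subcutaneous changes between -0.23 (ZNF165) and 0.39 (ZNF184). Their intramuscular changes ranged from -0.64 (ZNF165) and -0.54 (TRIM38), below the run's median, to 0.088 (ZNF391). In mammals the stretch beside TRIM38 and HFE holds the largest cluster of histone genes, but the tables used here give these symbols no names, and none was assigned. No sequences of these genes were compared. Had any of them near-identical copies, the level of a single member would depend on how reads were divided, which is not given in the sources used here.

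**Figure D2:**
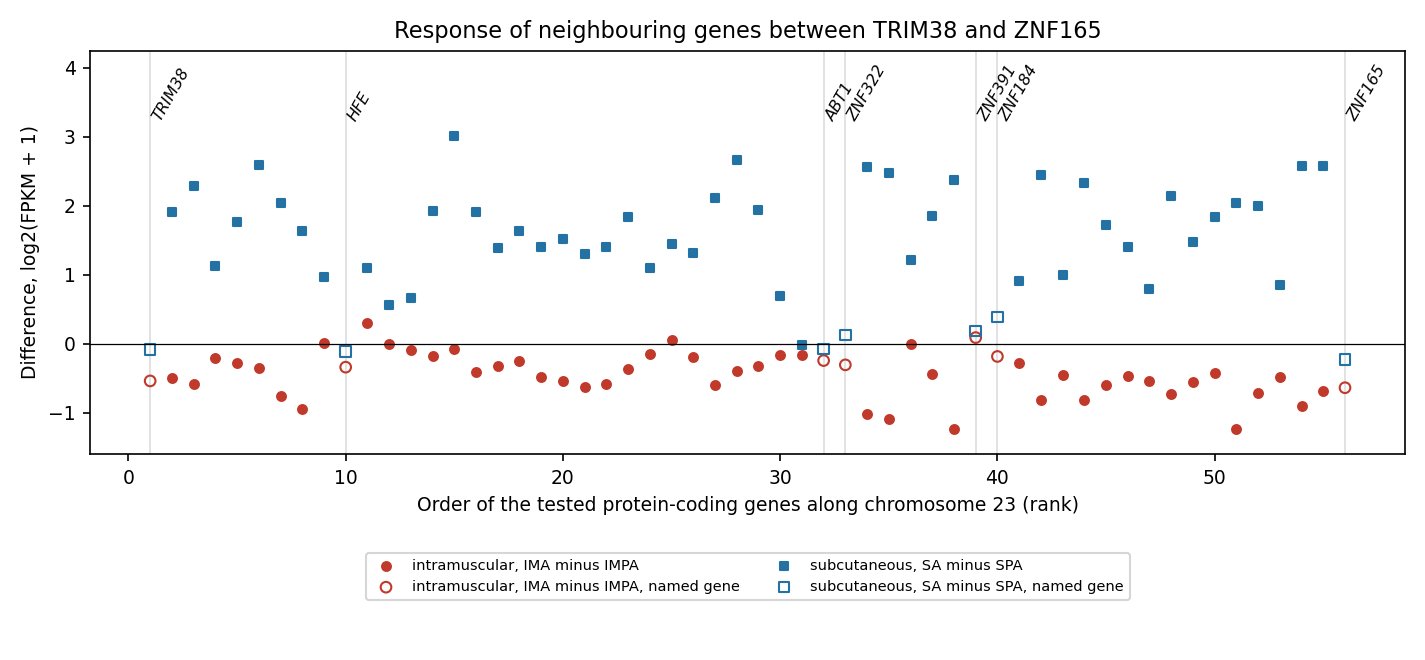
Differences on the log2(FPKM + 1) scale for the tested protein-coding genes between TRIM38 and ZNF165, in the order in which they lie on chromosome 23, with circles for intramuscular and squares for subcutaneous cells and open symbols for named genes. The 49 filled squares have a median of 1.72 and the filled circles one of -0.45, while the open squares lie between -0.23 (ZNF165) and 0.39 (ZNF184).

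Genes of serine synthesis and of the amino acid response driven by the transcription factor ATF4 formed a further group. Of 44 tested, 22 fell in intramuscular and rose in subcutaneous cells (16 stable), against 9.95% of all genes. In 35 the response was more positive in subcutaneous cells, against 34.6% of all genes. The medians were -0.23 and 0.40, and the class held 16 with the intronic lncRNA covariate and 19 without SPA1 and SA5. PSAT1, the second enzyme of serine synthesis, was at 199, 173, 208, 174 and 214 FPKM in IMPA and 113, 110.3, 149, 116 and 122 FPKM in IMA. It was at 47.7, 49.8, 48.6, 45.5 and 47.9 FPKM in SPA and 120.5, 129, 131, 119 and 118 FPKM in SA. IMPA had the highest level and SPA the lowest, and after induction IMA and SA overlapped, with changes of -0.66 ± 0.070 and 1.35 ± 0.070. The other 2 enzymes of the pathway changed likewise, PHGDH by -0.55 and 1.02 and PSPH by -0.58 and 1.37. CTH, which makes cysteine from cystathionine, was at 20.6, 16.4, 19.9, 16.5 and 20.4 FPKM in IMPA and 8.55, 8.77, 14.4, 8.40 and 9.58 FPKM in IMA. In SPA it was at 8.40, 7.49, 7.32, 5.79 and 6.90 FPKM and in SA at 19.5, 23.03, 22.7, 23.3 and 18.99 FPKM. CTH changed by -0.87 ± 0.12 and 1.46 ± 0.12, and IMA3 stood above the other IMA libraries. Asparagine synthetase (ASNS, -0.26 and 1.07), the folate enzyme MTHFD2 (-0.45 and 0.44) and the cystine transporter SLC7A11 (-0.30 and 0.69) belonged to the same class. Members of the ATF4 response that rose in both depots were STC2 (0.58 and 0.41), PPP1R15A (0.49 and 0.34), SLC1A5 (0.22 and 0.36) and VLDLR (0.34 and 0.39).

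Outside these groups, SPOCK1 is a secreted proteoglycan with large changes in both depots. It was at 12.7, 13.8, 13.5, 12.5 and 13.8 FPKM in IMPA and 4.55, 5.34, 6.30, 4.85 and 5.49 FPKM in IMA. In subcutaneous cells it was at 1.69, 2.21, 1.73, 1.81 and 1.46 FPKM in SPA and 8.57, 7.97, 7.53, 8.95 and 7.45 FPKM in SA. SPA was lowest and IMPA highest, the subcutaneous mean was 4.55-fold higher, with changes of -1.18 ± 0.073 and 1.71 ± 0.073. FLRT3, a membrane protein of cell adhesion, changed by -0.91 ± 0.064 and 1.07 ± 0.064, and SLC25A5, a carrier that exchanges ADP and ATP across the mitochondrial membrane, by -0.83 ± 0.064 and 0.96 ± 0.064. FST, the secreted activin antagonist follistatin, changed by -0.60 ± 0.11 and 1.16 ± 0.11, opposite to FSTL3 from the same family (1.06 ± 0.065 and -0.28 ± 0.065). ACTA2, smooth muscle actin, changed by -0.42 ± 0.077 and 0.62 ± 0.077.

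Small changes of this kind were seen in many genes of translation and splicing, and the scaling moved many of them out of the class. Of 76 cytosolic ribosomal protein genes tested, 67 had a more positive response in subcutaneous cells, against 34.6% of all genes. In the opposite class were 34, against 9.95% of all genes, and only 3 of these were stable. The medians were -0.11 and 0.21. With median-of-ratios scaling 46 had the interaction and 7 were in the class, and the intramuscular median was 0.014, so no direction is given for the intramuscular cells. Splicing factors had a more positive response in subcutaneous cells in 40 of 73 cases, against 34.6% of all genes, with 16 in the opposite class, against 9.95%, 9 of them stable. The proteasome gave 25 of 47 and 10, 4 of them stable.

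**Figure D3:**
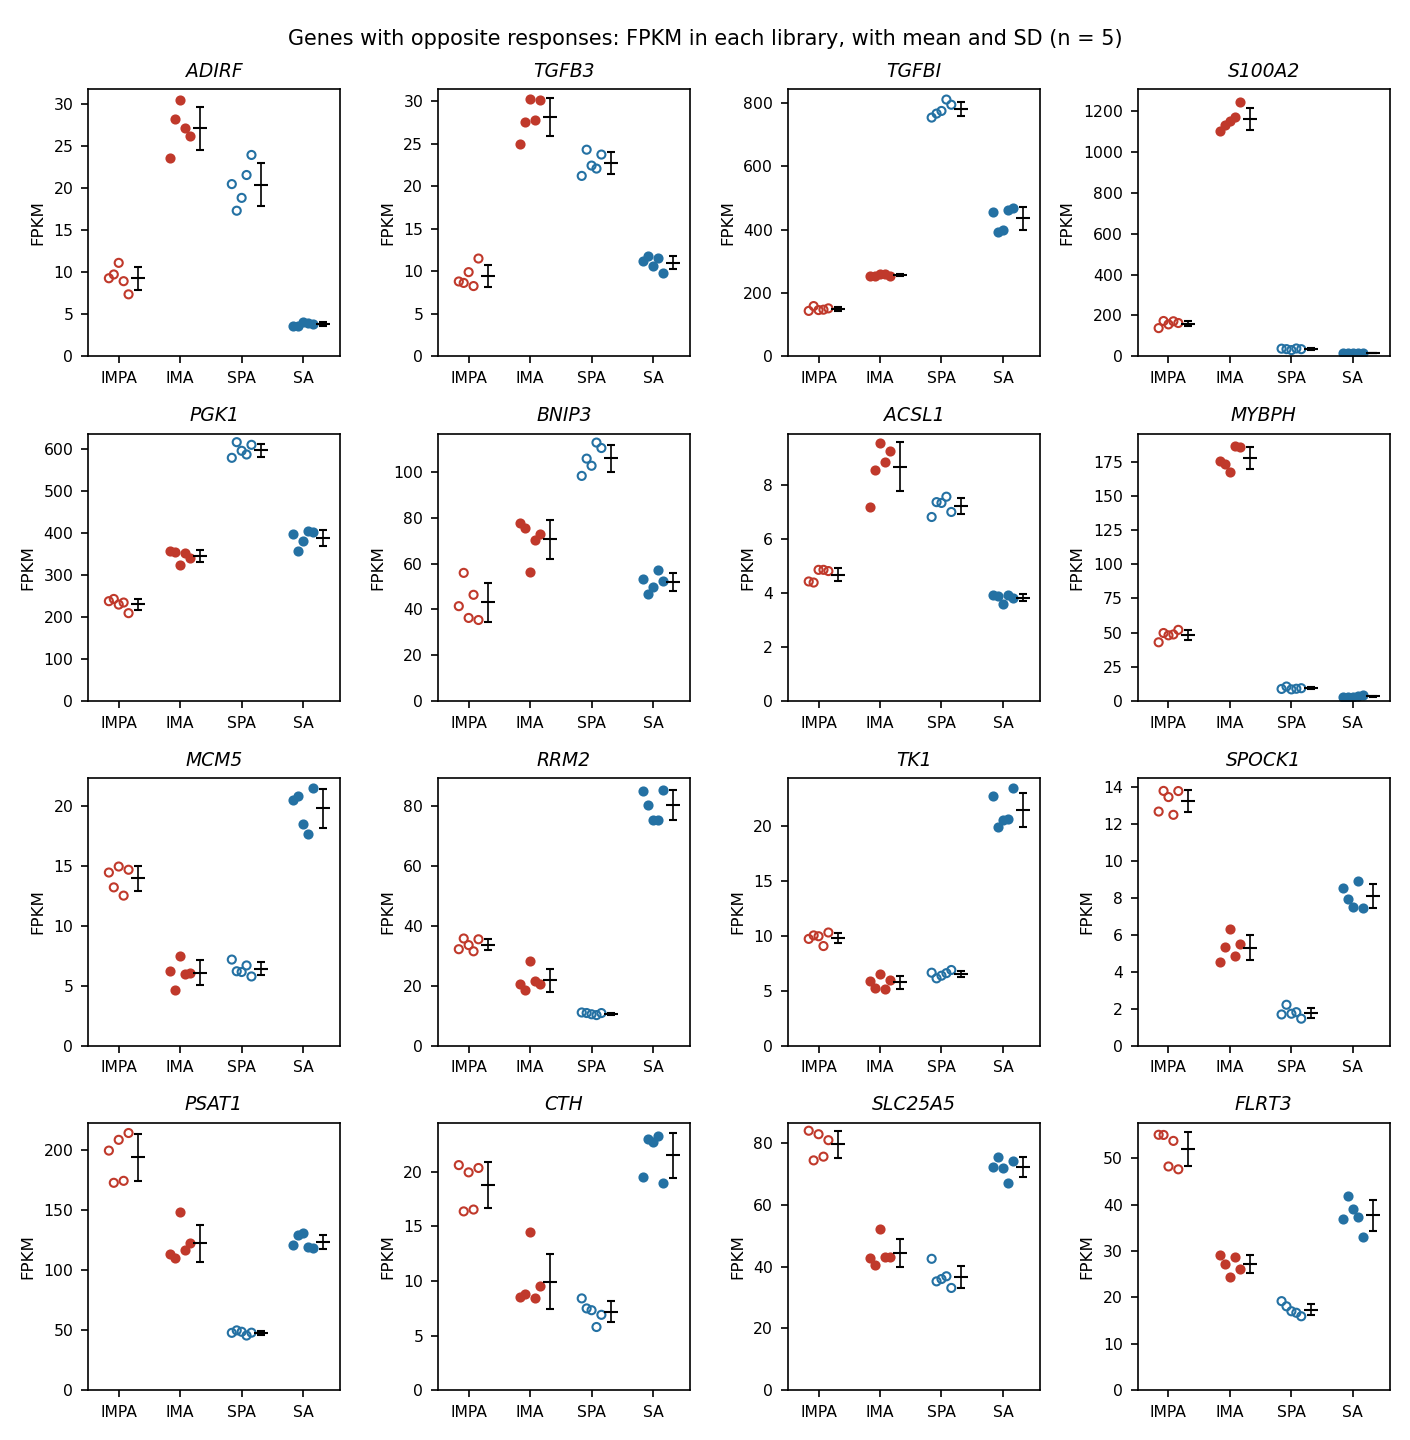
FPKM in each of the 20 libraries for 16 genes with opposite responses, with open symbols for preadipocytes, filled symbols for adipocytes, and the mean with its SD (n = 5) beside each group. In the upper 8 panels IMA lies above IMPA and SA below SPA, and in the lower 8 panels the reverse holds, with no overlap between the stages of a depot in any of them.

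The genes that rose in both depots included the PPAR targets PDK4, CD36, PLIN2 and ANGPTL4, the cytokine IL1A and several matrix proteins. The 32 genes of oxidation or PPAR control rose mostly in intramuscular cells alone. There 20 rose and 5 fell, against 20.4% and 40.5% of all genes. In subcutaneous cells 6 rose and 13 fell, against 26.3% of all genes in each direction. Only 4 rose in both depots, against 6.09% of all genes. PDK4, which blocks the entry of pyruvate into oxidation, was at 1.28, 1.74, 1.01, 1.57 and 1.03 FPKM in IMPA and 8.39, 10.1, 8.60, 9.94 and 9.28 FPKM in IMA. It was at 3.80, 3.92, 3.70, 4.33 and 4.15 FPKM in SPA and 9.41, 9.31, 8.40, 9.61 and 8.83 FPKM in SA. The 2 depots reached nearly the same level from different starting points, with rises of 2.15 ± 0.076 and 1.02 ± 0.076 and an interaction of 1.13 ± 0.11 (adjusted p = 1.52e-08, limma). CD36, a carrier of fatty acids into the cell, was at 0.193, 0.204, 0.235, 0.158 and 0.470 FPKM in IMPA and 4.48, 5.45, 4.91, 4.97 and 4.75 FPKM in IMA. In subcutaneous cells it was at 0.117, 0.0567, 0.0572, 0.0579 and 0.0504 FPKM in SPA and 1.44, 0.776, 1.15, 0.518 and 0.790 FPKM in SA. Levels below 1 FPKM compress the rise on the log2(FPKM + 1) scale, where it was 2.24 ± 0.094 and 0.84 ± 0.094, while the ratio of the mean FPKM was 19.5 in intramuscular and 13.8 in subcutaneous cells.

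PLIN2, a coat protein of small lipid droplets, was at 51.8, 67.3, 41.2, 53.9 and 34.9 FPKM in IMPA and 188, 178, 128, 170.3 and 165 FPKM in IMA. Its level was 256, 264, 259, 249.9 and 253 FPKM in SPA and 380.4, 403, 419.7, 401 and 377 FPKM in SA. Every SPA library already exceeded every IMA library, and the rise was 1.74 ± 0.12 in intramuscular and 0.62 ± 0.12 in subcutaneous cells (interaction adjusted p = 1.12e-05, limma). ANGPTL4, a secreted inhibitor of lipoprotein lipase, rose by 1.16 ± 0.14 and 0.45 ± 0.14, and CPT1A, which passes fatty acids into mitochondria, by 0.20 ± 0.070 and 0.38 ± 0.070. Apart from PLIN2, CD36 and ANGPTL4, no other of 22 tested genes of adipocyte identity rose in both depots. The adipogenic factors CEBPA (-0.68 and -0.31), CEBPD (-0.50 and -0.40) and EBF1 (-0.55 and -0.42) and the desaturase SCD (-0.32 and -1.01) fell in both, and FABP5, a fatty acid binding protein, fell in intramuscular and rose in subcutaneous cells (-0.58 and 0.46). FABP4, the adipocyte fatty acid binding protein, was not found by its symbol.

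IL1A, the cytokine interleukin-1 alpha, was at 4.49, 4.02, 2.47, 4.22 and 0.778 FPKM in IMPA and 11.5, 11.04, 9.77, 10.8 and 9.31 FPKM in IMA. In the subcutaneous cells it was at 8.41, 8.37, 7.45, 7.35 and 8.07 FPKM in SPA and 17.4, 18.9, 16.5, 18.2 and 16.3 FPKM in SA. The rises were 1.56 ± 0.20 and 1.05 ± 0.20, and their difference of 0.51 ± 0.28 had an interaction adjusted p of 0.128 (limma). TNFSF15, a cytokine of the tumour necrosis factor family, rose by 1.30 ± 0.19 and 1.05 ± 0.19, and GDF15, a stress-induced hormone, by 0.72 ± 0.073 and 0.83 ± 0.073. COL8A2, a short-chain collagen, was at 6.70, 5.96, 8.07, 6.20 and 9.62 FPKM in IMPA and 12.1, 12.2, 16.4, 12.1 and 13.3 FPKM in IMA. It was at 3.60, 3.87, 3.99, 4.11 and 4.21 FPKM in SPA and 9.38, 7.83, 8.56, 8.17 and 8.50 FPKM in SA. Its rises of 0.78 ± 0.10 and 0.94 ± 0.10 differed by -0.15 ± 0.14 (interaction adjusted p = 0.355, limma).

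Among matricellular and elastic fibre genes 10 of 31 tested rose in both depots (9 stable), against 6.09% of all genes, and 6 fell in both. The glycoprotein TNC rose by 1.15 ± 0.10 and 0.87 ± 0.10, elastin (ELN) by 0.42 ± 0.10 and 1.32 ± 0.10, FBLN5, which helps to assemble elastic fibres, by 0.36 ± 0.094 and 1.06 ± 0.094, and TIMP1, an inhibitor of metalloproteinases, by 0.87 ± 0.047 and 0.68 ± 0.047. The members that fell in both included THBS1 (-0.75 and -0.27), a thrombospondin, and NID2 (-0.71 and -0.96), a basement membrane protein. Antioxidant genes had 11 of 36 tested up in both (6 stable), against the same 6.09%, such as ferritin light chain (FTL, 0.88 and 0.51) and SRXN1 (0.38 and 0.36), which reactivates oxidised peroxiredoxins. Other genes that rose in both depots were NNAT (0.86 and 0.89), the receptor CALCRL (0.76 and 0.86), HN1 (1.32 and 0.87), MEI1 (0.88 and 1.07), PYURF (0.74 and 0.89) and C15H11orf96 (0.87 and 0.78).

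The genes that fell in both depots included most interferon-stimulated genes, most enzymes of cholesterol synthesis, EGR1 and HMOX1. Of 29 interferon-stimulated genes tested, 18 fell in both (17 stable), against 12.5% of all genes, with medians of -0.39 and -0.64. MX1, an antiviral GTPase, was at 37.6, 31.3, 22.9, 36.4 and 18.4 FPKM in IMPA and 6.39, 6.54, 9.12, 6.88 and 6.75 FPKM in IMA. In subcutaneous cells it was at 58.7, 63.3, 61.7, 63.8 and 60.2 FPKM in SPA and 13.9, 12.3, 10.3, 12.9 and 13.99 FPKM in SA. The changes of MX1 were -1.86 ± 0.14 and -2.20 ± 0.14, and the difference of 0.34 ± 0.20 was not called (adjusted p = 0.159, limma). The ubiquitin-like modifier ISG15 changed by -1.25 ± 0.22 and -2.30 ± 0.22, the RNA sensor DDX58 by -1.02 ± 0.12 and -1.28 ± 0.12, the transcription factor subunit IRF9 by -0.78 ± 0.073 and -1.12 ± 0.073, PARP14 by -1.13 ± 0.12 and -0.88 ± 0.12, and IFI44L by -0.87 ± 0.092 and -1.21 ± 0.092. In 11 of the 29 genes the interaction was called with the more negative response in subcutaneous cells, against 20.7% of all genes. IFIT2 was 1 member with opposite changes (0.28 and -1.40), and B2M, the light chain of MHC class I, the other (-0.32 and 0.19).

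Of 22 cholesterol synthesis genes tested, 15 fell in both, against 12.5% of all genes, and all 15 were stable. The medians were -0.61 and -0.50. HMGCS1, which makes the precursor of mevalonate, was at 50.5, 41.5, 53.5, 44.03 and 58.4 FPKM in IMPA and 27.8, 28.5, 36.4, 27.3 and 25.5 FPKM in IMA. It was at 38.02, 39.4, 37.7, 38.9 and 40.03 FPKM in SPA and 22.01, 23.7, 25.3, 23.3 and 21.7 FPKM in SA. The falls of -0.75 ± 0.084 and -0.72 ± 0.084 differed by -0.027 ± 0.12, which was not called (adjusted p = 0.863, limma). SQLE, the squalene epoxidase, was at 17.8, 14.2, 18.7, 16.1 and 18.9 FPKM in IMPA and 5.46, 5.80, 8.20, 6.36 and 6.50 FPKM in IMA. In SPA it was at 14.2, 12.8, 12.8, 14.3 and 13.5 FPKM and in SA at 7.59, 8.78, 8.62, 6.98 and 7.66 FPKM. Its fall was larger in intramuscular cells (-1.28 ± 0.085 against -0.70 ± 0.085, interaction adjusted p = 3.59e-04, limma). SREBF2, the transcription factor of the pathway, changed by -0.72 ± 0.10 and -0.55 ± 0.10, and the sterol isomerase EBP by -0.92 ± 0.11 and -0.86 ± 0.11. The exceptions were TM7SF2 (0.68 and -0.29), a sterol reductase, and STARD4 (0.17 and -0.44), a sterol carrier, which rose in intramuscular and fell in subcutaneous cells. Without SPA1 and SA5 18 interferon-stimulated and 13 cholesterol genes fell in both.

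HMOX1, the enzyme that breaks down haem, was at 20.6, 29.3, 18.6, 22.6 and 17.3 FPKM in IMPA and 5.19, 6.34, 4.98, 5.66 and 5.07 FPKM in IMA. It was at 56.1, 61.5, 67.7, 72.5 and 71.99 FPKM in SPA and 22.3, 18.2, 16.2, 20.3 and 22.00 FPKM in SA. SPA was highest and IMA lowest, and the changes of -1.80 ± 0.11 and -1.69 ± 0.11 had a difference of -0.11 ± 0.16 that was not called (adjusted p = 0.587, limma). EGR1, an early response transcription factor, was at 4.50, 6.99, 4.06, 6.13 and 5.83 FPKM in IMPA and 1.25, 1.91, 1.88, 1.45 and 1.35 FPKM in IMA. In subcutaneous cells the values were 4.81, 5.70, 6.15, 5.94 and 5.95 FPKM in SPA and 0.925, 0.846, 0.837, 0.850 and 0.615 FPKM in SA. The fall was larger in subcutaneous cells (-1.33 ± 0.10 against -1.89 ± 0.10, interaction adjusted p = 0.00316, limma). Further genes that fell in both were GAS1 (-1.46 and -1.70), a membrane protein induced in growth arrest whose IMA1 value lay far under the other IMA libraries, EBF3 (-1.04 and -1.02), a transcription factor, CXCL12 (-1.22 and -0.87), a chemokine of stromal cells, ABI3BP (-1.10 and -1.14), a matrix protein, and LCTL (-0.93 and -1.26).

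**Figure D4:**
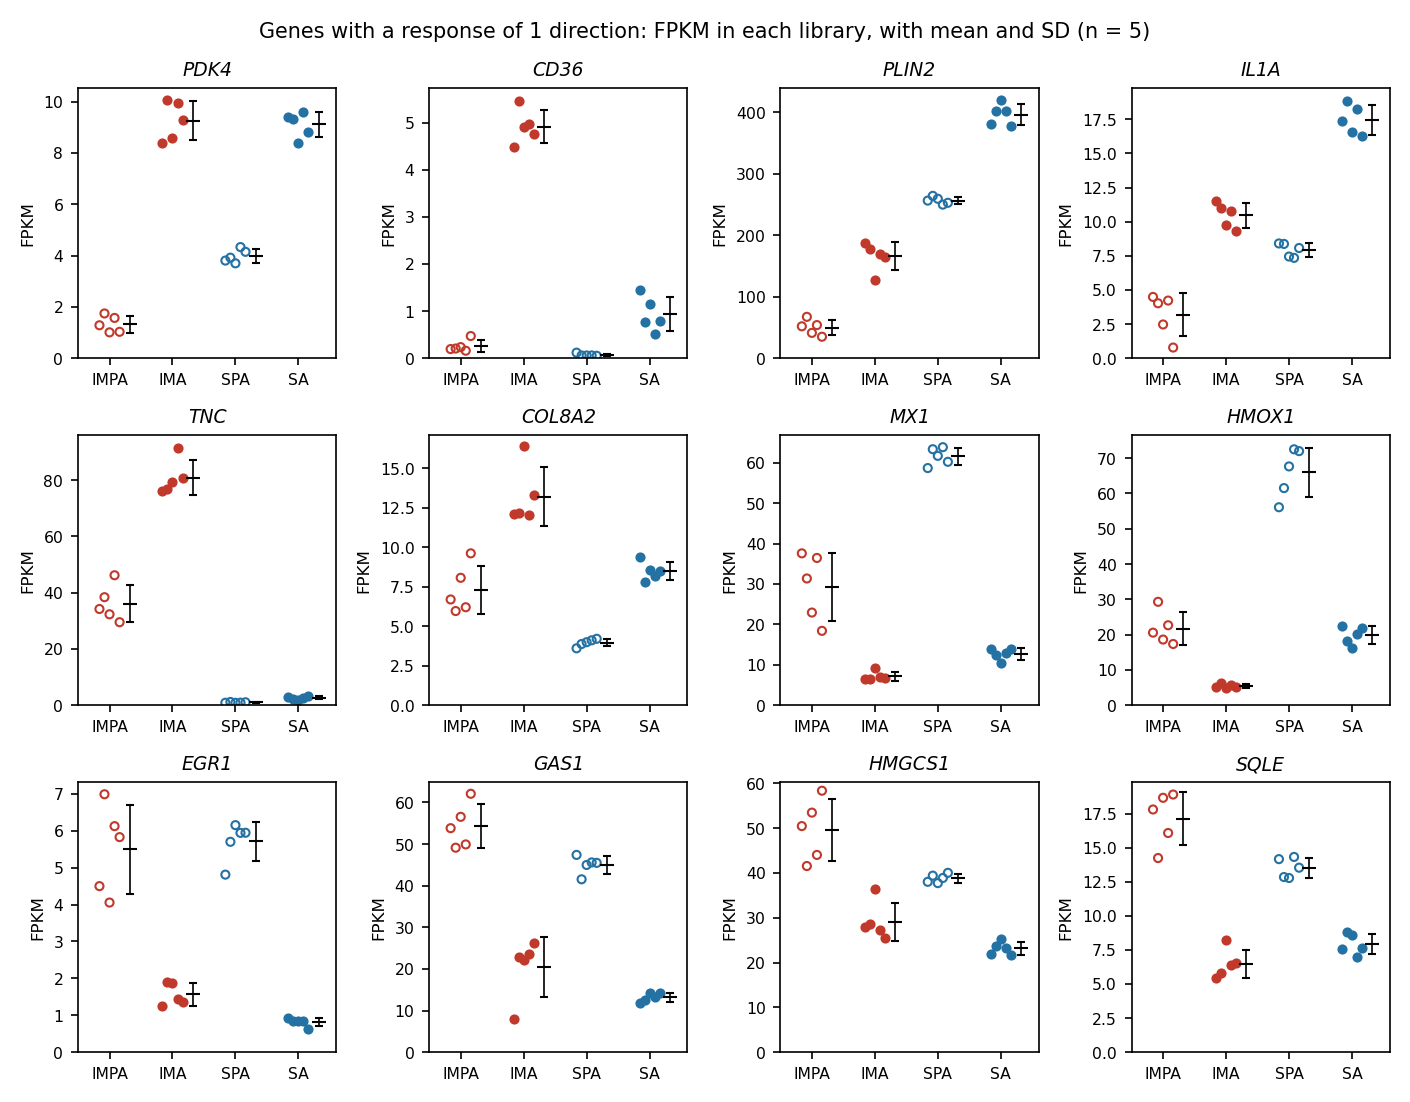
FPKM in each of the 20 libraries for 12 genes with a response of the same direction in both depots, with open symbols for preadipocytes, filled symbols for adipocytes, and the mean with its SD (n = 5) beside each group. In the first 6 panels (PDK4 to COL8A2) adipocytes lie above preadipocytes in both depots, and in the last 6 (MX1 to SQLE) they lie below.

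Other lists gave mixed responses. Markers of stromal progenitors fell in 15 of 23 cases in subcutaneous cells, against 26.3% of all genes, and in 9 in intramuscular cells, a share near the 40.5% of all genes. In 14 the response was more negative in subcutaneous cells, against 20.7% of all genes. S100A4, a calcium-binding protein of fibroblasts, changed by -0.41 ± 0.12 and -2.88 ± 0.12, and the surface marker THY1 by -0.013 ± 0.079 and -1.21 ± 0.079, with the intramuscular change of THY1 not called (adjusted p = 0.899, limma). For S100A4 the intramuscular change did not stay called under every scaling. In the TGF-beta list 14 of 34 genes had a more positive response in intramuscular cells and 6 in subcutaneous cells, against 20.7% and 34.6% of all genes. Of 56 subunits of oxidative phosphorylation, 11 had a more positive response in intramuscular and 21 in subcutaneous cells, which is near the shares of all genes. With median-of-ratios scaling the counts were 20 and 8, so no direction is given. HOX genes record the position of a cell along the body. Of 11 tested, 2 had a more positive response in intramuscular and 3 in subcutaneous cells, against 20.7% and 34.6% of all genes. In intramuscular cells 0 rose and 1 fell, and in subcutaneous cells 3 rose and 3 fell, so no direction is given.

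Of the genes the study names, CD36 rose in both depots (above), SMAD1, a BMP signal transducer, rose in intramuscular and fell in subcutaneous cells (0.33 ± 0.040 and -0.32 ± 0.040), and FGFR2, a growth factor receptor, fell in both (-0.78 ± 0.074 and -0.46 ± 0.074). FABP3, the heart fatty acid binding protein, rose in intramuscular cells (0.52 ± 0.10), and its subcutaneous change of -0.23 ± 0.10 had an adjusted p of 0.0619 (limma). FGF11 fell in subcutaneous cells (-0.98 ± 0.12), with an intramuscular change of 0.057 ± 0.12 (adjusted p = 0.706, limma), and TGFB2 rose there (0.55 ± 0.091), with an intramuscular change of 0.19 ± 0.091 (adjusted p = 0.0711, limma). UXT, the reference gene of the study's qPCR, fell in both (-0.22 ± 0.076 and -0.20 ± 0.076), though not under every scaling. FOXO6 and DLK1, a factor that keeps preadipocytes undifferentiated, were under the limit for testing, with DLK1 at most 0.0421, 0.0729, 0.269 and 0.266 FPKM in IMPA, IMA, SPA and SA.

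**Figure D5:**
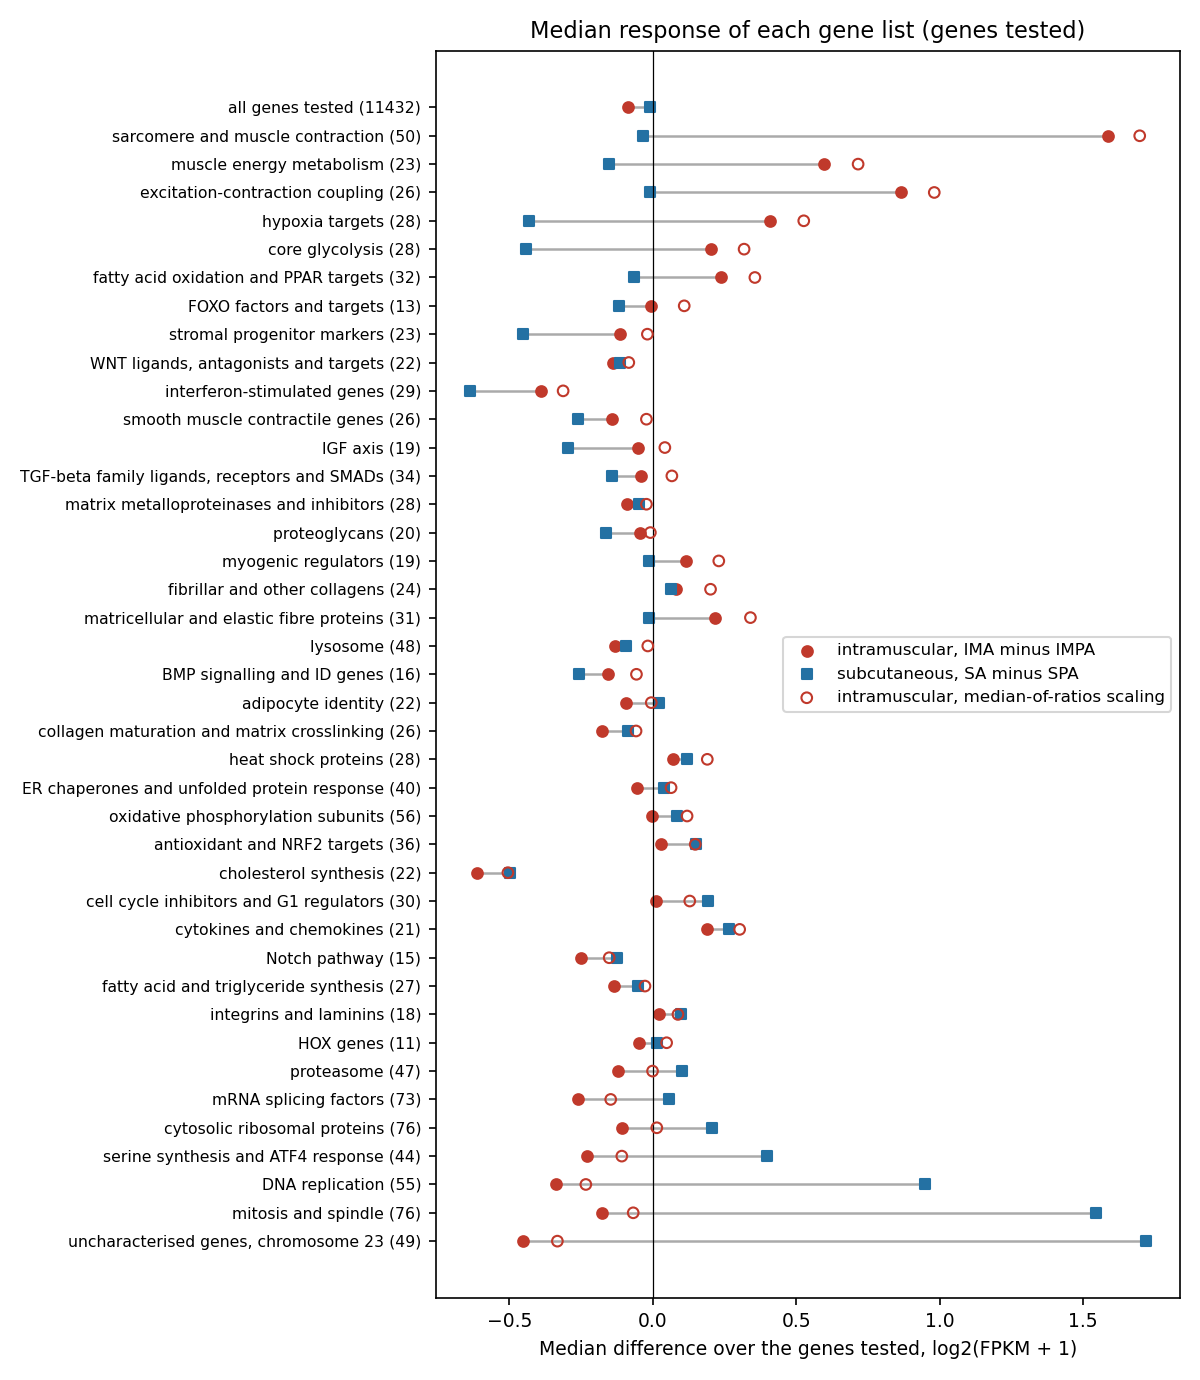
Median difference on the log2(FPKM + 1) scale over the tested genes of each list with at least 10 of them (number in brackets), filled circles for intramuscular and squares for subcutaneous cells, with open circles for the intramuscular median under median-of-ratios scaling. Hypoxia targets have medians of 0.41 and -0.43, DNA replication genes -0.34 and 0.95, and cholesterol synthesis genes -0.61 and -0.50, while many genes of the muscle lists were under 1 FPKM in subcutaneous cells, which sets their medians near 0 there.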

How the data were processed

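RNA of the 20 cultures was sequenced without ribosomal RNA, and the authors deposited FPKM values per transcript, calculated with StringTie 1.3.1 and Ballgown after alignment to goat assembly ARS1 with HISAT2 2.0.4 (versions from the submitters' processing notes), in separate tables for mRNA and 2 kinds of lncRNA. Transcript values were summed by gene symbol, genes that averaged 1 FPKM or more across all 20 were kept, and log2(FPKM + 1) was fitted with a mean for each of the 4 groups in limma 3.58.1 (R 4.3.3, trend in the moderated variance). Contrasts were IMA minus IMPA, SA minus SPA, and the first minus the second. Calls used a Benjamini-Hochberg adjusted p under 0.05. The study describes the replicates as biological, but no label ties replicate numbers to goats, and p values measure the spread between these samples. For library measures the stages of a depot were compared by an exact permutation test, two-sided, with 252 ways to divide its 10 libraries (Python 3.11.15, scipy 1.17.1).

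The 45 gene lists, the genes and the comparisons were chosen with earlier results of these data known, and lists are described by counts and medians, with no test of the list. Named genes are, per class, the 12 with the largest smaller change whose stages do not overlap in either depot, per interaction direction the 10 with the smallest p, up to 5 per list with the smallest interaction p, list members whose role a sentence is about, and genes the study names. Symbols that start with LOC or are only a number were left out of the 12 per class. By gene ID, 20553 symbols matched the RefSeq table of assembly ARS1.2, which was used for gene order only. Alternatives were other scalings, filters, pseudocounts, thresholds, models, covariates, the most abundant transcript and the omission of libraries. In data simulated for the interaction over 11432 genes, the fit recovered 82.1% of 67 genes with a log2 interaction of 0.5, all 67 with 1 and all 66 with 2, and called 16 of 11232 unchanged genes. Promoter sequences were not analysed here. Some genes are not reported here.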

Additional observations from a re-analysis of the deposited data

Results flagged for a closer look

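The responses differed between the depots in 2368 genes with a more positive and 3951 with a more negative response in intramuscular cells, by limma's test of the interaction. Among genes whose values are printed or plotted by library, the interaction on the log2(FPKM + 1) scale was positive for the opposite genes PGK1 (1.20), BNIP3 (1.73), ACSL1 (1.54), TGFBI (1.61), TGFB3 (2.47), MYBPH (3.09), ADIRF (3.61) and S100A2 (3.89). It was negative for the opposite genes SLC25A5 (-1.79), FLRT3 (-1.98), PSAT1 (-2.01), TK1 (-2.26), CTH (-2.34), MCM5 (-2.58), SPOCK1 (-2.90), RRM2 (-3.42) and LOC102178027 (-3.62). For genes with a response of the same direction in both depots it was 1.13 for PDK4, 1.41 for CD36, 1.11 for PLIN2, 0.56 for EGR1 and -0.58 for SQLE. The muscle genes MYL3 (4.37) and MYBPC1 (3.48) differed through the intramuscular cells.

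Single libraries stood apart from the other 4 of their group in 11 of 124 groups of gene values by Dixon's test, and chance alone flags about 1 in 20 groups. IMA3 was high for CTH (14.4 FPKM), COL8A2 (16.4 FPKM), MX1 (9.12 FPKM), HMGCS1 (36.4 FPKM) and SLC25A5 (52.3 FPKM). IMA1 was low for GAS1 (7.87 FPKM). CD36 was high in IMPA5 (0.470 FPKM) and in SPA1 (0.117 FPKM). MYBPC1 was high in SPA1 (0.187 FPKM) and SA5 (0.0401 FPKM), and EGR1 was low in SA5 (0.615 FPKM). No library stood apart in this way in 20 groups of library measures.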

How the results depend on the processing

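The FPKM tables hold no counts, and the library read totals the study gives were not used, so depth was not weighed. Leaving out 1 library at a time gave 6054 to 6381 interaction calls (2260 to 2418 more positive in intramuscular and 3788 to 4021 in subcutaneous cells), 448 to 508 genes up in intramuscular and down in subcutaneous cells, 1048 to 1203 of the reverse, 648 to 710 up in both and 1326 to 1445 down in both. Without SPA1 and SA5 the interaction calls were 2284 and 3931 and the classes, in this order, 449, 1139, 720 and 1406. The intronic lncRNA share as a covariate gave 3410 calls (1293 and 2117) and classes of 220, 577, 384 and 676. Median-of-ratios scaling gave 3583 and 2618 calls and classes of 874, 649, 1049 and 1054. The mRNA sum moved the genes down in both to 2157, and the most abundant transcript to 880. An adjusted p under 0.01 gave classes of 310, 755, 451 and 948. A change of at least 1.5-fold in each contrast left 1865 calls (785 and 1080) and classes of 25, 45, 36 and 58. A call under all 4 other scalings, a criterion added after seeing the data, left 2313 and 2593 calls and classes of 421, 530, 465 and 942. The causes of these differences were not tested beyond the construction of each setting. A fit with the replicate block gave 2365 and 3939 calls and classes of 492, 1150, 706 and 1434, and since residuals of same-numbered samples correlated at -0.24 to 0.18 over 30 pairs (median 0.026, 5 over 0.1), no pairing was used, and whether same-numbered samples share a goat was not given. Of 261 named genes 236 were called in the interaction, and over 9134 refits 9013 left direction and call as they were, 98 lost the call, 20 gained it and 3 changed sign: ABI3BP was -0.52 with a pseudocount of 0.1, and with the most abundant transcript GANAB was 0.82 and RPS19 0.085.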

Other observations

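Further lists had members in several classes. Fatty acid and triglyceride synthesis had 6 of 27 tested genes down in intramuscular and up in subcutaneous cells, against 9.95% of all genes. Of these 6, 3 were stable under the 4 other scalings. The 6 included the elongase ELOVL6 (-0.30 and 0.65) and the acyltransferase GPAM (-0.31 and 0.34), whereas GPAT3, an acyltransferase of the endoplasmic reticulum, rose in both (1.18 and 0.34). The small heat shock proteins HSPB1 (1.25 and -0.50), HSPB2 (1.43 and -0.17) and HSPB6 (0.83 and -0.31), which are abundant in muscle, rose in intramuscular and fell in subcutaneous cells. The large chaperone HSP90AA1 moved the other way (-0.29 and 0.51). Of 28 heat shock genes tested 5 rose in both, against 6.09% of all genes.

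Of 26 genes of smooth muscle contraction and its actin cytoskeleton 8 fell in both depots (5 stable), against 12.5% of all genes. Among them were SRF (-0.55 and -0.68), the transcription factor of actin genes, and the adhesion proteins ZYX (-0.44 and -0.38) and PDLIM7 (-0.58 and -0.48). The collagenase MMP1 rose in intramuscular and fell in subcutaneous cells (0.48 and -1.26), and TIMP3, a metalloproteinase inhibitor, rose in both (0.38 and 1.00). IGFBP4, a binding protein of insulin-like growth factors, rose in intramuscular and fell in subcutaneous cells (0.60 and -0.54), and IGFBP6 fell in both (-1.22 and -0.29). Of 48 lysosomal genes tested 10 fell in both, against 12.5% of all genes, but 4 were stable, among them the protease CTSA (-0.59 and -0.88). GREM1, a secreted BMP antagonist, fell in both (-0.51 and -1.15), as did the WNT receptor FZD4 (-0.62 and -1.14).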
